A study of Mus musculus with 3 samples.

Results

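The 10 genes described here belong to the signal that FGF4 sends between cells of the mouse blastocyst: the ligand Fgf4, the receptors Fgfr1, Fgfr2 and Fgfr3, and the ERK feedback genes and targets Spry2, Spry4, Dusp4, Dusp6, Etv4 and Etv5. They were chosen by name, as 10 of the 23154 genes counted, and were read in every cell barcode with 2000 or more genes with a count. The cells came from embryos at embryonic day 3.5 of a mouse line labelled Klf2-H2Bmcherry, a reporter of Klf2, a gene that fluid flow induces, in which a histone fused to a red fluorescent protein marks nuclei. The embryos were collected at embryonic day 2.5, grown under static and shaking culture, chosen for mCherry signal, stripped of the zona pellucida and taken apart into single cells that were picked by hand. All 3 libraries of 96 barcodes, called replicates 1, 2 and 3, form 1 group. The labels do not say which cells were cultured with shaking or how many embryos and cultures a library drew on, and any p-value reflects how far these 3 libraries spread, which may be technical. Per the labels every cell came from this line, and no cells of another line were analysed here.

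In the blastocyst, FGF4 is made by cells of the inner cell mass (ICM) and binds receptor tyrosine kinases on neighbouring cells. The receptors act through RAS, RAF, MEK and ERK, and ERK activity turns on its own inhibitors (Sprouty proteins and dual-specificity phosphatases) together with ETS transcription factors of the PEA3 group. This signal is known for dividing the ICM into epiblast (EPI) and primitive endoderm (PrE), and for sustaining the trophectoderm (TE), the outer epithelium. The counts show in which of these cells the ligand, the receptors and the feedback genes were transcribed. They do not measure ERK activity.

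Promoters are shown for the ligand and for 3 genes whose level differed between ICM-like and TE-like cells. A transcript start of each can thus be seen beside its values. Each run spans 300 bases, 250 before and 50 after a transcript's start, and was taken from RefSeq on GRCm38.p6, the assembly that mm10 is another name for. Fgf4 lies on chr7:144861136-144861435 (+ strand), Fgfr2 on chr7:130266759-130267058 (- strand), Dusp6 on chr10:99262981-99263280 (+ strand) and Etv5 on chr16:22438319-22438618 (- strand). In the GENCODE annotation of mm10 the genes span chr7:144847367-144865243, chr7:130162451-133123350, chr10:99263231-99267489 and chr16:22381309-22439719 in the same order, so that the windows of Fgf4, Fgfr2 and Etv5 lie within the annotated genes and that of Dusp6 across its annotated start. Capitals mark GGAAGT, the core of a motif bound by ETS factors.
Fgf4: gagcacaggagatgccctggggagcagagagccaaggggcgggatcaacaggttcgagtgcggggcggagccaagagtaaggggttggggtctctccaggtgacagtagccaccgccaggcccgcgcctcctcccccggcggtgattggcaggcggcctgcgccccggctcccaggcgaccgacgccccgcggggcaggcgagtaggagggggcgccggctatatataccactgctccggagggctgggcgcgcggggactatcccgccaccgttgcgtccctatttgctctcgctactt
Fgfr2: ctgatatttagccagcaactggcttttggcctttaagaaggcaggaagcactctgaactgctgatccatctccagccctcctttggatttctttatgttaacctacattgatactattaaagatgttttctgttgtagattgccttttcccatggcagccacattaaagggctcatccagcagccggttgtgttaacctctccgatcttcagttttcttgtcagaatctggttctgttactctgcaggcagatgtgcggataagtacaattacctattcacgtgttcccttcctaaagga
Dusp6: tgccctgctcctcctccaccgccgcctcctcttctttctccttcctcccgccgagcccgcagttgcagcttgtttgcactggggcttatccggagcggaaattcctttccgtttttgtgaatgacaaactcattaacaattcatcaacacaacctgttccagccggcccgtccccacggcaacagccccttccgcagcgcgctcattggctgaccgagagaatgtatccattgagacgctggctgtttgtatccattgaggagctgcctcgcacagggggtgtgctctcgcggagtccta
Etv5: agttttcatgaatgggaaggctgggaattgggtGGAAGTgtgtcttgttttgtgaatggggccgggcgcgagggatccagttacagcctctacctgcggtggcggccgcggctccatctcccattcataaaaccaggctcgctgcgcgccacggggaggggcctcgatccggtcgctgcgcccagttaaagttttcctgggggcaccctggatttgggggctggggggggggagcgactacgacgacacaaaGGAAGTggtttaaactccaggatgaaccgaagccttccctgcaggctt

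Of the 10 genes, 6 had a promoter in the RefSeq table, with 8 windows in all. GGAAGT occurred in 1 of them, the Etv5 window shown, at 2 places. The other Etv5 window, chr16:22439521-22439820, is not shown. It lies across the annotated start of the gene, has a GC content of 74.0% and holds no GGAAGT. Among all 32851 promoter windows of that length, 23.8% held GGAAGT on either strand. A longer ETS motif, CCGGAAG, was searched first and occurred in 8.86% of all windows and in none of the 8. The core bound by TEAD factors, GGAATG, occurred in 14.7% of all windows. The core bound by GATA factors, AGATAA, occurred in 11.2%, and the octamer of POU factors, ATTTGCAT, in 1.74%. These 3 motifs, also searched on both strands, occurred in none of the 8. The GC content was 69.7% for Fgf4, 43.7% for Fgfr2, 57.3% for Dusp6 and 60.0% for the Etv5 window shown, against a median of 52.7% over all windows. These matches describe letters in a window and say nothing of binding.

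The libraries held 30573711, 27610866 and 54444536 counts, and 83, 64 and 78 barcodes passed as cells. Cells were grouped on 53 marker genes, none of them among the 10, into 113 ICM-like cells, 63 TE-like cells and 49 cells without a name. The 20 TE markers summed to 942 ± 275 CPM (a gene's counts per 1e6 counts) among ICM-like cells and to 7555 ± 1328 CPM among TE-like cells, and the 6 ICM markers to 1429 ± 380 and 772 ± 203 CPM (SD, n = 3 libraries). The 10 EPI markers summed to 986 ± 125 and 754 ± 63.8 CPM and the 19 PrE markers to 964 ± 426 and 463 ± 127 CPM in the same order. Sox2, an epiblast factor, and the TE marker Lcp1 were listed at 0 in all cells. Of the markers tested, which had drawn the classes, 12 of 19 for TE were called lower in ICM-like cells and 1 higher. Called higher there were 3 of 6 ICM, 3 of 8 EPI and 6 of 15 PrE markers. There were 2 ICM-like clusters, numbered 1 (64 cells) and 4 (49 cells). The 10 leading markers of cluster 1 were 6 of PrE and 4 of ICM or EPI, and those of cluster 4 were 9 of ICM or EPI and 1 of PrE. Cluster 1 had the higher sums by value of the ICM markers (1611 ± 339 CPM, against 1124 ± 410 CPM in cluster 4), the EPI markers (1004 ± 116 and 948 ± 149 CPM) and the PrE markers (1242 ± 676 and 553 ± 169 CPM). Cluster 4 had more of the TE markers, at 802, 1944 and 1643 CPM, against 609, 650 and 572 CPM in cluster 1 of replicates 1, 2 and 3, and was shallower, its median cell holding 0.787 times the median total of its library, against 1.19 times in cluster 1. TE-like cells were the deeper ones, with median totals of 342748, 601041 and 885770 counts against 235439, 345414 and 595470 in ICM-like cells of replicates 1, 2 and 3. Markers of other cells, summed in ICM-like and TE-like cells, had means of 0 and 0.0127 CPM for 6 blood genes, 0.398 and 0.0383 CPM for 5 fibroblast genes, 1.76 and 2.53 CPM for 8 cumulus genes, 33.6 and 97.2 CPM for 5 oviduct genes and 27.9 and 12.8 CPM for 6 oocyte genes. The 8 immediate early genes, which dissociation can induce and which ERK can also switch on, summed to 169 ± 24.8 and 354 ± 93.1 CPM, and the part of these lists in the results was not tested. Of these lists, Wfdc2 (oviduct, 1 of 3 tested) and Klf6 (immediate early, 1 of 7 tested) were called lower in ICM-like cells, named after their values were seen.

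Of the 10 genes, Etv5 was higher and Fgfr2, Dusp4 and Dusp6 were lower in ICM-like than in TE-like cells, and the other 6 did not pass. Over all 12402 genes tested, 6% were called in either direction, 2.14% higher and 3.85% lower, by the quasi-likelihood test of edgeR, blocked by library, at a Benjamini-Hochberg adjusted p below 0.05. Of the 10 genes, 5 had an unadjusted p below 0.05 by edgeR, against 2487 of the 12402 genes tested. DESeq2 called 5 of the 10, against 1730 of the 12402. The median log2 fold change was 0.26 over the 10 genes and 0.03 over all genes tested. Values below are CPM of the counts summed over the cells of a class in a library. Where values of the classes are said not to overlap, the share of all genes without overlap was not counted, so nothing is read from it. The classes were drawn on the same cells, though on other genes, and the p-values do not carry the uncertainty of drawing them.

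**Figure D1:**
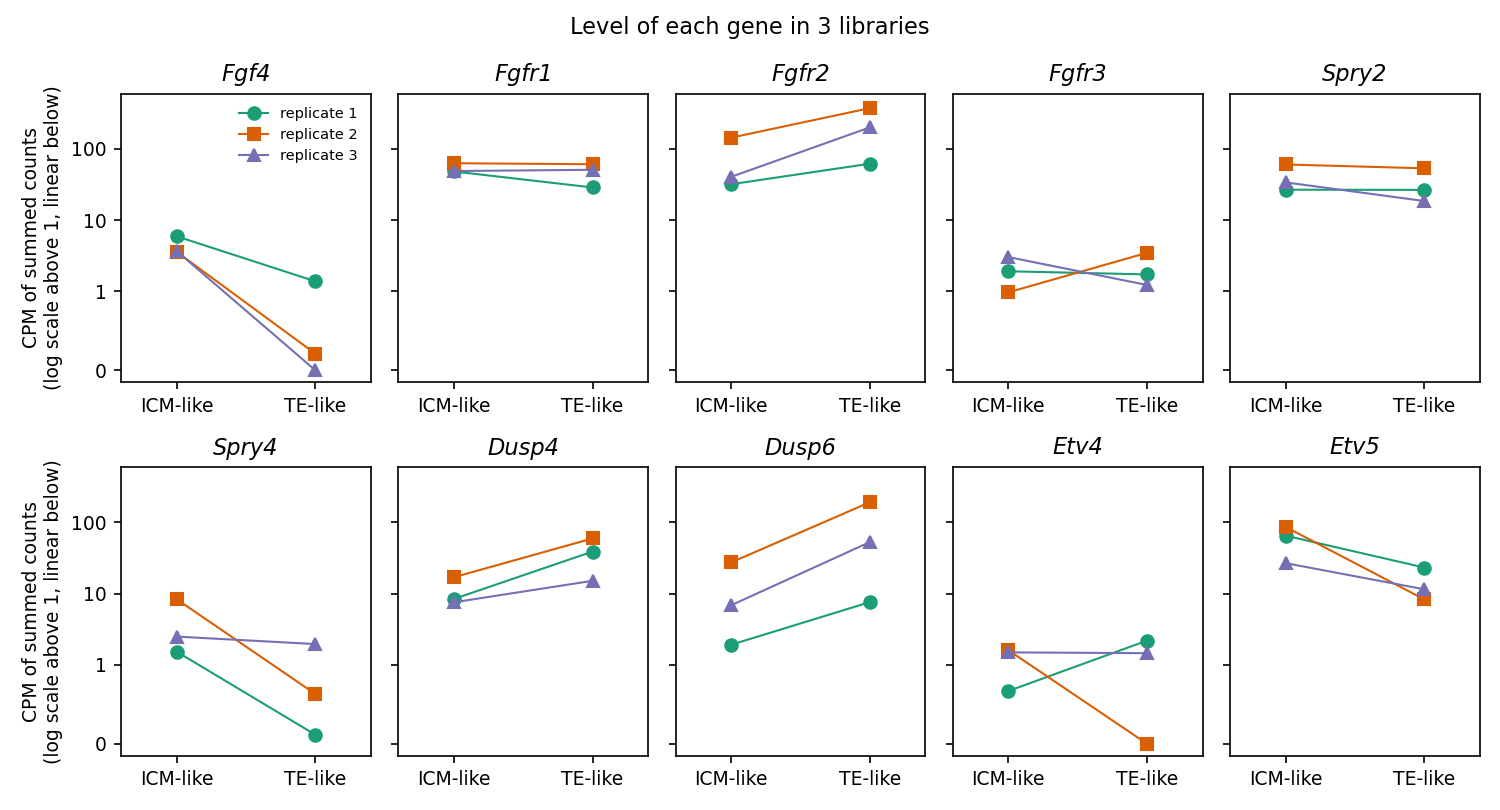
CPM of summed counts (log scale above 1, linear below) of each gene in ICM-like (left) and TE-like cells (right), with 1 line per library. The lines of Fgfr2, Dusp4 and Dusp6 are lower on the ICM-like side in all 3 libraries. Those of Fgf4, Spry2, Spry4 and Etv5 are higher there, and of these Etv5 alone passed. Those of Fgfr1, Fgfr3 and Etv4 differ in direction between libraries.

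Among the named cells, Fgf4, the ligand, was found mainly in ICM-like ones, at 216 counts in 19 of 113 cells. TE-like cells had 14 counts in 3 of 63 cells. Its level was 5.91, 3.57 and 3.67 CPM in ICM-like cells and 1.38, 0.210 and 0 CPM in TE-like cells of replicates 1, 2 and 3. Every ICM-like value lay above every TE-like value, but the log2 fold change of 4.17 (SE 1.52) did not pass (edgeR adjusted p = 0.162), and counts were few. Leaving out replicates 1, 2 and 3 in turn gave log2 fold changes of 5.81, 4.17 and 2.92. Within a library, 1 cell held 40.3%, 70.7% and 39.6% of the counts of ICM-like cells in replicates 1, 2 and 3, and 91.7% of those of TE-like cells in replicate 1. Fgf4 met the minimum count for testing through its ICM-like sums, where it is high, so a pass in another fit of the same contrast is no support of its own. It passed in 3 of 13 alternatives: DESeq2 (log2 fold change 4.38, DESeq2 adjusted p = 0.0111), limma on cells weighted alike (2.22, limma adjusted p = 0.0291) and edgeR without the cells of unusually high totals (5.98, edgeR adjusted p = 0.0378).

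Most ICM-like cells had no count of the ligand. A count was seen in 16.8% of ICM-like cells (exact binomial 95% interval 10.4% to 25.0%), against 4.76% of TE-like cells (0.993% to 13.3%), intervals that cover counting error over cells only. With every cell thinned to 50000 counts it was seen in 14 of 106 ICM-like cells and in 0 of 62 TE-like cells. A count of 0 there allows a share of up to 4.84% (3 of 62) with a count at that depth, and says nothing of the 3 TE-like cells with a count at full depth. The ICM-like cells with a count numbered 11, 3 and 5 in replicates 1, 2 and 3, and their median level was 15.2, 58.6 and 40.5 CPM. The highest single ICM-like cell reached 87.3, 58.7 and 78.4 CPM. A cell without a count may still have held the transcript at this depth.

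Within the ICM-like cells, Fgf4 counts lay mostly in cluster 1, the cluster with the higher ICM, EPI and PrE marker sums. It held 205 of the 216 counts, in 14 cells, at 7.55, 6.43 and 5.42 CPM in replicates 1, 2 and 3. Cluster 4, which was shallower and held more of the TE markers, had 11 counts in 5 cells, at 2.78, 0 and 0.116 CPM. In cluster 1, 1 cell held 48.1%, 70.7% and 40.0% of these counts in replicates 1, 2 and 3. In cluster 4, 1 cell held 40.0% and 100% in replicates 1 and 3. A count was seen in 21.9% of cluster 1 cells (exact 95% interval 12.5% to 34.0%) and 10.2% of cluster 4 cells (3.40% to 22.2%). The CPM values of the clusters did not overlap, which was not counted over all genes. No test was made, since the clusters were compared after their values were seen. The part of depth and of TE markers in the difference was not tested. In the cells without a name, 39 counts fell in 2 of 49 cells, 1 in replicate 2 at 231 CPM and 1 in replicate 3 at 118 CPM. Both cells lay above every ICM-like cell in CPM, on 30 and 9 counts. Unnamed cells of these libraries were shallow, with median totals of 79228 and 46116 counts, against 345414 and 595470 in ICM-like cells. The part of depth in this rank was not tested. The summed level of the unnamed cells was 0, 17.0 and 4.58 CPM in replicates 1, 2 and 3, in replicates 2 and 3 above that of ICM-like cells.

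Of the receptors, Fgfr2 was lower in ICM-like cells, and Fgfr1 and Fgfr3 did not pass. Fgfr1, the receptor found in all lineages of the mouse blastocyst, had 48.2, 62.9 and 48.8 CPM in ICM-like cells and 28.7, 60.9 and 50.8 CPM in TE-like cells. These values overlapped, and the log2 fold change was 0.20 (SE 0.26, edgeR adjusted p = 0.737). A count of Fgfr1 was present in 87.6% of ICM-like and 90.5% of TE-like cells, and thinning left 64.2% and 67.7%.

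Fgfr2, the receptor of trophectoderm and primitive endoderm, was 3.01-fold lower in ICM-like than in TE-like cells. Its level was 31.9, 143.7 and 40.5 CPM in ICM-like cells, against 61.9, 373.6 and 200.3 CPM in TE-like cells of replicates 1, 2 and 3. The difference held within each library, while replicate 2 was high in both classes, so the ICM-like value of replicate 2 exceeded the TE-like value of replicate 1. The log2 fold change was -1.59 (SE 0.26, edgeR adjusted p = 0.00836). A count was seen in 79.6% of ICM-like cells (exact 95% interval 71.0% to 86.6%), against all 63 TE-like cells (94.3% to 100%), and thinning left 57.5% of ICM-like and 96.8% of TE-like cells with one. The median cell had 9.66, 48.0 and 16.7 CPM among ICM-like cells, against 56.1, 395 and 207 CPM among TE-like cells. Leaving out replicate 2 gave -1.71, as large as with all libraries, and did not pass (edgeR adjusted p = 0.0625). ICM-like cluster 4 alone, the one with more TE markers, gave -0.97 against TE-like cells (edgeR adjusted p = 0.0901).

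Fgfr3, the remaining receptor, was scarce, with 1.91, 0.986 and 3.02 CPM in ICM-like cells and 1.72, 3.46 and 1.22 CPM in TE-like cells, a log2 fold change of -0.13 (SE 1.17, edgeR adjusted p = 0.971). Its counts lay in 9 ICM-like and 5 TE-like cells, and 998 of its 7158 exon bases overlap a gene on the opposite strand, so that without a known strand setting reads of the pair cannot be told apart. Fgfr1 (164 bases, opposite strand) and Fgfr2 (314 bases shared with Ctbp2 on its own strand) overlap other exons too, and the other 7 genes overlap none in the GENCODE annotation.

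**Figure D2:**
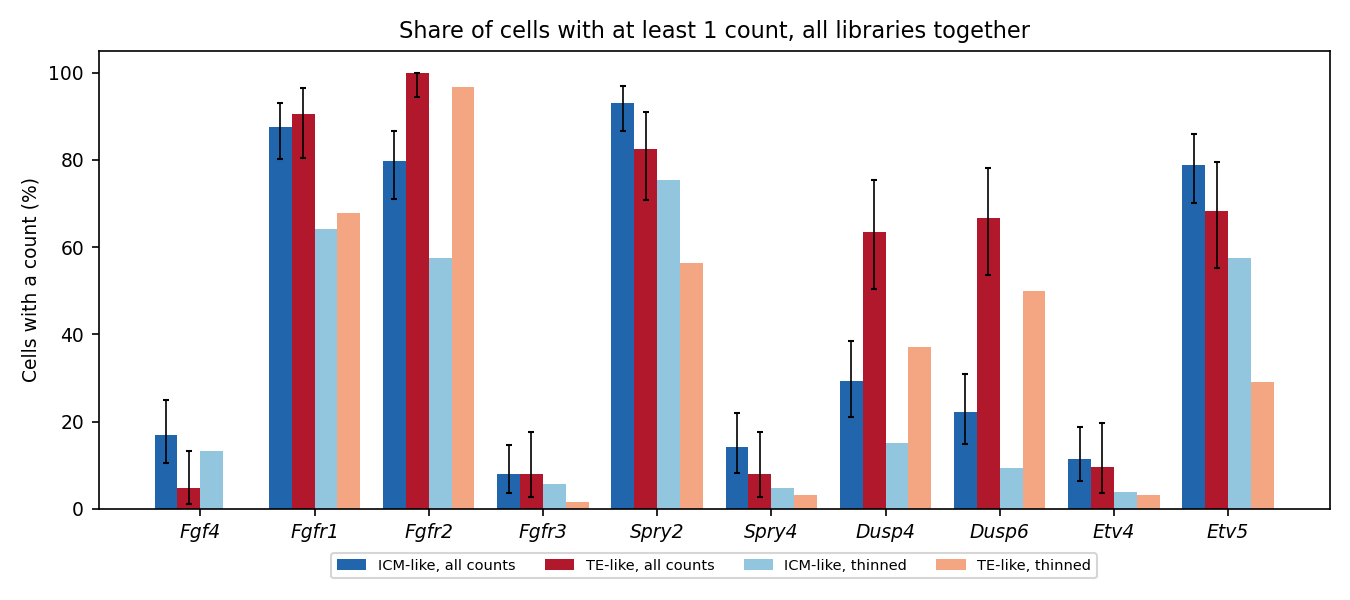
Percent of ICM-like (blue) and TE-like cells (red) with at least 1 count of each gene, from all counts (dark bars, with exact binomial 95% intervals) and with every cell thinned to 50000 counts (pale bars). Fgf4 was seen in 16.8% of ICM-like and 4.76% of TE-like cells, and Fgfr2 in 79.6% and 100%.

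Among the feedback genes, the phosphatases were lower in ICM-like cells and the ETS factor Etv5 was higher there. Dusp6, a phosphatase that acts on ERK in the cytoplasm, was 6.38-fold lower in ICM-like cells. It had 1.91, 27.4 and 6.84 CPM in ICM-like cells, against 7.58, 191.8 and 52.9 CPM in TE-like cells. Within each library the ICM-like value was the lower one, though the spread between libraries was wide and the ICM-like value of replicate 2 exceeded the TE-like value of replicate 1. The log2 fold change was -2.67 (SE 0.30, edgeR adjusted p = 0.00165). A count was seen in 22.1% of ICM-like and 66.7% of TE-like cells, and in 9.43% and 50.0% after thinning. In ICM-like cells of replicates 1, 2 and 3, 1 cell held 50.0%, 55.2% and 51.4% of the Dusp6 counts.

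Dusp4, a phosphatase that acts on ERK in the nucleus, was 3.27-fold lower in ICM-like cells, at 8.39, 16.9 and 7.53 CPM, against 38.9, 59.5 and 15.1 CPM in TE-like cells. The classes overlapped only in that ICM-like replicate 2 lay above TE-like replicate 3. The log2 fold change was -1.71 (SE 0.38, edgeR adjusted p = 0.0346). It had a count in 29.2% of ICM-like and 63.5% of TE-like cells, and in 15.1% and 37.1% after thinning. This call was lost in 8 of 15 alternatives, among them the thinned cells (log2 fold change -1.23, edgeR adjusted p = 0.135) and the cells without unusually high totals (-1.45, edgeR adjusted p = 0.0920), and its value turned to 1.03 on the log2 scale, with no test, within barcodes 33 to 64.

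Etv5, an ETS factor that ERK signalling induces, was 3.88-fold higher in ICM-like cells. These had 65.1, 86.4 and 26.8 CPM, against 23.2, 8.29 and 11.5 CPM in TE-like cells. The classes did not overlap, which was not counted over all genes. The log2 fold change was 1.95 (SE 0.45, edgeR adjusted p = 0.0369). A count was present in 78.8% of ICM-like and 68.3% of TE-like cells, and in 57.5% and 29.0% after thinning. Without replicate 2 the log2 fold change was 1.29 (edgeR adjusted p = 0.0938). ICM-like cluster 1 had 73.2, 136.8 and 36.2 CPM, and cluster 4, with more of the TE markers and less depth, had 49.8, 23.3 and 7.64 CPM, a difference that was not tested. Cluster 4 alone against TE-like cells gave a log2 fold change of 0.82 (edgeR adjusted p = 0.549).

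The remaining feedback genes did not pass. Spry2, a Sprouty inhibitor of receptor signalling, had 26.7, 60.4 and 33.8 CPM in ICM-like cells and 26.5, 53.3 and 18.5 CPM in TE-like cells, a log2 fold change of 0.32 (SE 0.30, edgeR adjusted p = 0.627), with a count in 92.9% and 82.5% of cells. Spry4, another Sprouty gene, had 1.53, 8.32 and 2.49 CPM in ICM-like cells and 0.115, 0.630 and 1.95 CPM in TE-like cells (2.43, SE 1.26, edgeR adjusted p = 0.330), and 82.2% of its ICM-like counts in replicate 2 came from 1 cell. Etv4, the relative of Etv5, had 0.668, 1.60 and 1.49 CPM in ICM-like cells and 2.18, 0 and 1.45 CPM in TE-like cells (0.55, SE 1.77, edgeR adjusted p = 0.911), and its counts lay in 13 ICM-like and 6 TE-like cells.

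All 4 calls rested on comparing the classes within a library. In a fit without the library as a block, no gene of the whole table passed. The log2 fold changes were then -1.59 for Fgfr2, -1.83 for Dusp4, -2.81 for Dusp6 and 1.92 for Etv5, close to those with the block, at edgeR adjusted p of 0.915, 0.642, 0.723 and 0.641. Without replicate 1, 2 calls were left, and Dusp4 (log2 fold change -1.41, edgeR adjusted p = 0.173) and Etv5 (2.28, edgeR adjusted p = 0.0539) lost theirs. Without replicate 2 all 4 were lost, with log2 fold changes of -2.57 for Dusp6 (edgeR adjusted p = 0.0524) and -1.66 for Dusp4 (edgeR adjusted p = 0.162) beside those of Fgfr2 and Etv5 given above. When all cells, the unnamed ones included, were split by the sign of the marker score, Fgfr2 alone was called, and the edgeR adjusted p was 0.126 for Dusp6, 0.272 for Dusp4 and 0.590 for Etv5.

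The positions of the barcodes differed between the classes, with 31, 31 and 51 ICM-like and 40, 14 and 9 TE-like cells in barcodes 1 to 32, 33 to 64 and 65 to 96. Of the pairs of a library and a barcode range, 6 held at least 2 cells of each class. Within these pairs, values of Fgfr2 and of Dusp6 were below the TE-like value in 6 of 6, and those of Etv5 and Spry2 above it in 6 of 6. Dusp4 was below in 4 of 6 and Fgf4 above in 5 with no count in either class in the remaining pair. The mean log2 ratio over the 6 pairs was -1.77 ± 1.22 for Fgfr2, -2.78 ± 1.99 for Dusp6 and 2.70 ± 1.30 for Etv5 (SD over pairs, no test).

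**Figure D3:**
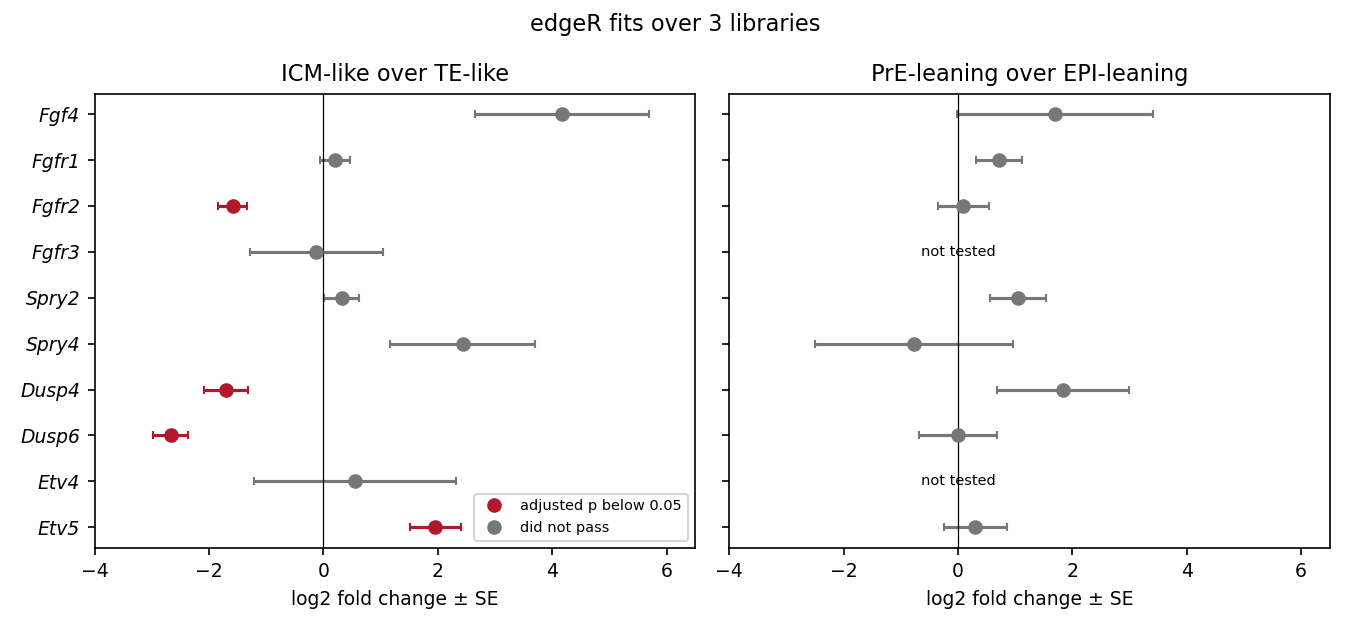
Log2 fold change with its standard error from edgeR fits over 3 libraries, for ICM-like over TE-like cells (left) and PrE-leaning over EPI-leaning cells (right). Points in red passed at an adjusted p below 0.05: Fgfr2, Dusp4 and Dusp6 left of 0 and Etv5 right of it, all in the comparison of ICM-like with TE-like cells.

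Other genes of the pathway were followed through 6 lists of 79 genes, of which 78 were in the table and 58 could be tested. Of these 58, 1 was higher and 1 lower in ICM-like cells, and 56 did not pass, with a median log2 fold change of 0.02. That is a smaller share than the 6% called over all genes, and nothing is read from the count. Sdc1, a cell surface heparan sulfate proteoglycan, was 4.26-fold higher in ICM-like cells, at 27.7, 49.1 and 26.6 CPM, against 9.18, 17.1 and 2.64 CPM in TE-like cells, a log2 fold change of 2.09 (SE 0.47, edgeR adjusted p = 0.0359). Dusp14, a dual-specificity phosphatase, was 3.65-fold lower in ICM-like cells, at 32.1, 99.97 and 97.3 CPM, against 179.4, 301.7 and 266.0 CPM in TE-like cells, a log2 fold change of -1.87 (SE 0.24, edgeR adjusted p = 0.00278). Both genes are named because they were called. Their values did not overlap between the classes, which was not counted over all genes. None of the 6 other ligands, 4 other receptors and co-receptors, 9 adaptors and 11 RAS, RAF, MEK and ERK kinases tested passed, nor did the other 12 heparan sulfate genes and 14 feedback genes.

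The next question was whether the 10 genes differed along the division of the ICM into epiblast and primitive endoderm. Each library's ICM-like cells were ranked by their PrE markers minus their EPI markers, and the 13, 11 and 13 highest (PrE-leaning) were compared with as many of the lowest (EPI-leaning). These are ranges of a score and not cell types, and 11, 13 and 18 cells lay within 0.1 of a boundary. None of the 8 genes that could be tested was called, of 0% called among 10321 genes by edgeR, and none of the 8 had an unadjusted p below 0.05. Over all genes 524 had an unadjusted p below 0.05 and DESeq2 called 47, none of the 8 among them. The PrE markers, which set the score, had a median log2 fold change of 1.97, and 0 of the 14 tested passed. Of the other pathway genes 51 could be tested, and 0 passed.

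Fgf4 had 5.35, 1.11 and 10.6 CPM in PrE-leaning cells and 12.1, 0 and 1.62 CPM in EPI-leaning cells, with no common direction across the libraries (log2 fold change 1.70, SE 1.71, edgeR adjusted p = 0.975). Its ICM-like cells with a count fell at 8 in the PrE-leaning range, 5 in the middle and 6 in the EPI-leaning range. Fgfr1 had 67.9, 73.7 and 84.1 CPM in PrE-leaning cells and 38.4, 62.3 and 35.9 CPM in EPI-leaning cells (0.71, SE 0.40, edgeR adjusted p = 0.946). These values did not overlap, but the difference did not pass. How many of all genes also lacked overlap was not counted. Fgfr2 had 22.1, 101.2 and 26.4 CPM in PrE-leaning cells and 12.1, 133.2 and 25.9 CPM in EPI-leaning cells (0.09, SE 0.44, edgeR adjusted p = 0.993), and the libraries did not share a direction.

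Of the feedback genes, Spry2 had 28.8, 104.8 and 53.7 CPM in PrE-leaning cells, above 23.1, 39.1 and 19.0 CPM in EPI-leaning cells in each library (log2 fold change 1.04, SE 0.49, edgeR adjusted p = 0.946). Dusp4 had 13.1, 15.8 and 12.0 CPM in PrE-leaning cells and 5.33, 0.949 and 7.36 CPM in EPI-leaning cells (1.83, SE 1.16, edgeR adjusted p = 0.956). The values of Dusp4 did not overlap between the ranges, and those of Spry2 did. In replicates 1, 2 and 3, 1 cell held 43.6%, 98.2% and 45.3% of the PrE-leaning Dusp4 counts. It was 86.7%, 40.0% and 59.3% of the EPI-leaning ones. For Spry2, 1 cell held 31.4%, 21.4% and 52.6% of the PrE-leaning counts and 30.8%, 21.4% and 18.7% of the EPI-leaning ones. Neither gene passed, and lack of overlap was not counted over all genes, so nothing is read from it. Dusp6 had 3.68, 4.44 and 13.3 CPM in PrE-leaning cells and 2.49, 75.3 and 1.62 CPM in EPI-leaning cells, and Etv5 had 56.9, 170.0 and 25.5 CPM in PrE-leaning cells and 95.3, 36.6 and 30.9 CPM in EPI-leaning cells. For neither did the libraries share a direction. Spry4 had a log2 fold change of -0.77 (SE 1.73), and Fgfr3 and Etv4 had too few counts for a test.

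**Figure D4:**
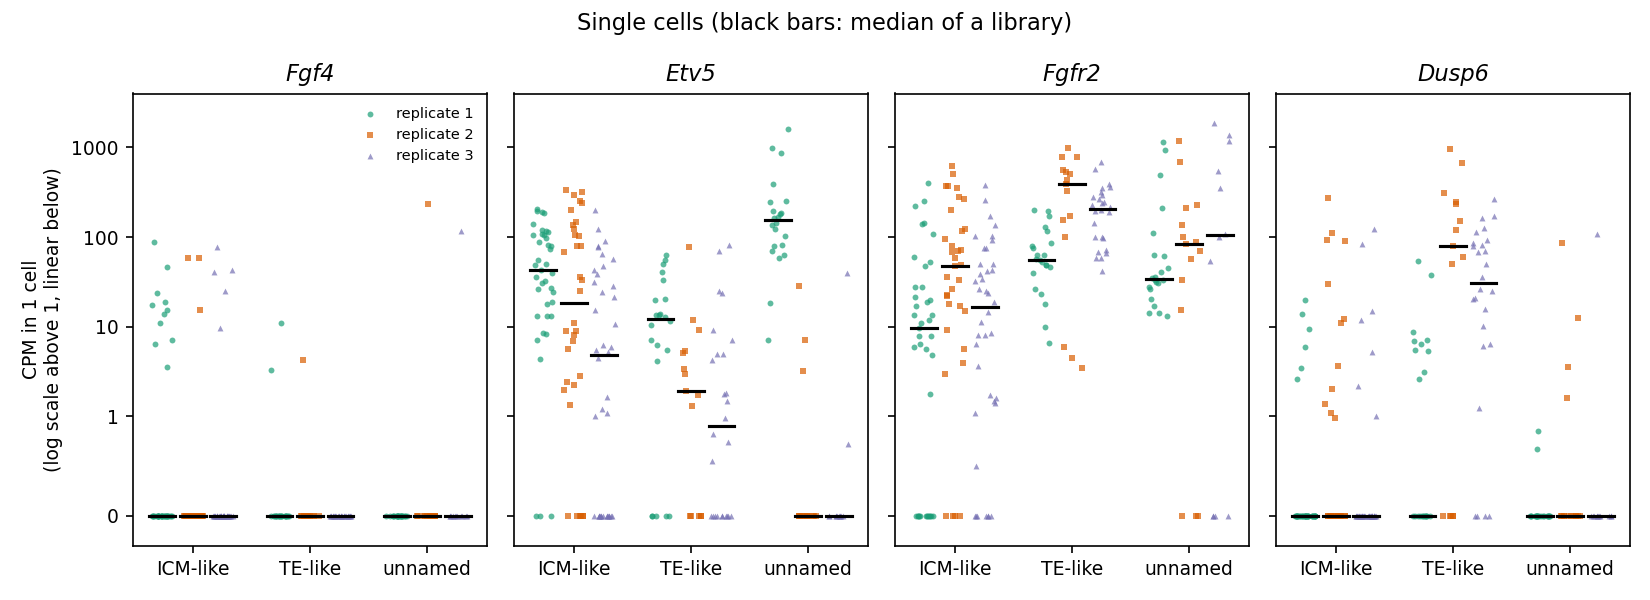
CPM of Fgf4, Etv5, Fgfr2 and Dusp6 in each cell (log scale above 1, linear below), by class and library, with a black bar at the median of a library. Fgf4 is at 0 in most cells of each class, Fgfr2 is above 0 in every TE-like cell, and the unnamed cells of replicate 1 include the cells with the highest Etv5, up to 1627 CPM.

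Transcripts of sender and receiver occurred in the same cells. Of the 19 ICM-like cells with a count of Fgf4, 17 had a count of Fgfr1, 13 of Fgfr2, 18 of Spry2 and 16 of Etv5. Of the 94 ICM-like cells without Fgf4, 82 had a count of Fgfr1, 77 of Fgfr2, 87 of Spry2 and 73 of Etv5. Spry4 was seen in 5 of the 19 and 11 of the 94, Dusp4 in 4 and 29, and Dusp6 in 4 and 21. Of the cells with Fgf4, 11 of 19 came from replicate 1, against 28 of 94 of those without, and Fgfr2 was seen in 69.2% of the ICM-like cells of replicate 1, against 88.2% and 82.5% in replicates 2 and 3. The median total was 280309 counts in the cells with Fgf4 and 396992 in those without. The shares are given as a description, since cells of a library share their preparation.

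Across cells, the levels of the 10 genes were weakly related by Pearson correlation. Among 113 ICM-like cells no pair had a Pearson correlation above 0.3 on a log2 scale centred within libraries, and the correlations with the score of PrE minus EPI markers lay between -0.10 and 0.20. Among 63 TE-like cells, Spry2 with Dusp4 (0.35) and Dusp4 with Etv5 (0.33) exceeded 0.3. In those cells Dusp4 and Etv5 also correlated with the total count (0.32 and 0.38), and all such values share library and depth. By rank (Spearman), pairs among ICM-like cells ran from -0.35 (Fgf4 with Etv4) to 0.53 (Spry4 with Etv4), with 0.46 for Spry4 with Dusp6. Each of these 4 genes had no count in most ICM-like cells. After centring, cells of a library without a count share 1 value, and the part of such ties in the ranks was not tested.

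The genes most like Fgf4, Fgfr1, Fgfr2 and Spry4 were ranked over 176 named cells and 10272 genes by the same Pearson correlation. Fgfr2 was nearest to Ptges (0.64), a prostaglandin E synthase, and to the TE markers Gata3 (0.60), Id2 (0.58) and Dppa1 (0.57), which had been used to draw the classes. Fgf4 was nearest to Parp9 (0.39), Syt9 (0.38), Mpnd (0.35) and Slc13a5 (0.33), and in sparse counts values of this size are weak. Fgfr1 was nearest to Prim2 (0.44), Kansl1 (0.42), Mnat1 (0.40) and Bcas3 (0.39), and Spry4 to Cyp2b13 (0.43), E2f2 (0.36), Klf16 (0.35) and Tdh (0.32). By library, Cyp2b13 with Spry4 was -0.11, 0.78 and 0.20 and E2f2 with Spry4 was -0.09, 0.51 and 0.43 in replicates 1, 2 and 3, so neither held in replicate 1, and Parp9 with Fgf4 was 0.38, 0.74 and 0.10.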

How the data were processed

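The authors deposited raw counts, whole numbers for each gene in each cell barcode, with no normalization. Per the submitters' processing notes, the tools were CASAVA 1.8, HISAT2 and HTSeq, with build mm10. Per the labels, cells were prepared with a Smart-seq2 variant whose primers carry cell barcodes and molecular identifiers and whose 3' fragments were captured. The versions of HISAT2 and HTSeq, the strand setting and whether counts are molecules or reads were not given in the sources used here.

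Barcodes with 2000 or more genes were kept as cells, and no doublet caller was run on hand-picked cells. Of the barcode numbers, 46 passed in all 3 libraries, which reuse them. Values of log2(CPM + 1), scaled to the median cell and centred within libraries, were clustered on 53 varying markers (10 components, 15 neighbours, Leiden resolution 0.5; scanpy 1.11.5). A cluster was named when its TE score or its ICM plus EPI score exceeded the other cells by 0.25 and at least 3 of its markers were detected, and a cluster under a depth limit without leading markers stayed unnamed. Counts were summed per class and library (8 or more cells) and tested with edgeR 4.0.16 (filterByExpr, TMM, quasi-likelihood, library as a block, adjusted p below 0.05). The pairing comes from both classes having been taken out of the same library. Alternatives used DESeq2 1.42.0 and limma 3.58.1, and the scripts were tested on simulated data.

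The 10 genes, the gene lists and the tests were chosen with earlier results of these data known. Of the pathway lists, the genes called in a comparison are named, and for 4 members the 4 genes with the highest correlation among genes with a count in at least 20% of cells. The cluster comparisons of Fgf4 and Etv5, the unnamed cells and the GGAAGT motif were chosen after values were seen. Intervals, and floors of 3 counts of the total, cover counting error only.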

Additional observations from a re-analysis of the deposited data

How the results depend on the processing

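With no replicate block, that is without the pairing of the classes by library, 0 of the 10 genes and 0 of all genes were called between ICM-like and TE-like cells, Etv4 turned to -0.12 and, between PrE-leaning and EPI-leaning cells, Fgfr2 to -0.20. Leaving out 1 library gave 0 to 4 called members and 280 to 592 called genes between the classes, and 0 members and 0 to 40 genes between the ranges. In these fits the log2 fold change between the classes ran from -0.01 to 0.37 for Fgfr1, from -0.86 to 0.68 for Fgfr3 and from -0.85 to 2.21 for Etv4. Between the ranges it ran from -0.19 to 0.37 for Fgfr2, from -2.02 to 1.79 for Dusp6 and from -0.57 to 0.96 for Etv5. DESeq2 called 1730 genes between the classes and 47 between the ranges, and between the ranges 30 were called without a filter on low counts and 12 with cells weighted alike.

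Splitting all cells by the sign of the score called 1 member and 97 genes, with Fgfr1 at -0.40 and Fgfr3 at 0.10. ICM-like cluster 4 alone, an alternative chosen after seeing the data, called 1 member and 233 genes. Etv4 was -0.22 in cells with 4000 or more genes and -0.36 at a Leiden resolution of 1.0, where Fgfr3 was 0.068, and within barcodes 33 to 64, with no test, Dusp4 was 1.03, Spry4 -1.20 and Etv4 -1.13. Fgfr3 moved to -5.20 in cells with 4000 or more genes (edgeR adjusted p = 0.142). That setting also clustered the cells anew. It named 53 cells ICM-like and 62 TE-like and left clusters of 64 and 17 cells unnamed, so its ICM-like class is a smaller one. With the score cut at its middle, Fgf4 was -0.37, Fgfr2 -0.76 and Etv5 -0.25. The cause of these changes was not tested. Fgfr2, Dusp4, Dusp6 and Etv5 kept their direction in all 15 tested alternatives each, apart from Dusp4 within barcodes 33 to 64, which had no test. Over all members and alternatives between the classes, 19 values lost a call and 3 gained one. There was 1 TE-like cluster, so TE-like clusters were not compared alone, and the ranges could not be fitted with 4000 or more genes, since too few cells were left.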

Other observations

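The highest Etv5 levels of the data set lay outside both named classes. Of 22 unnamed cells of replicate 1, 21 had barcodes 33 to 64, and they were not shallow, with a median of 263160 counts and 7547 genes. All 21 had a count of Etv5, from 18.3 to 1627 CPM with a median of 163 CPM. Their summed level was 502 CPM, against 65.1 CPM in the library's ICM-like cells and 23.2 CPM in its TE-like cells. The 8 named cells of replicate 1 in the same barcode range had 73.6 CPM. Etv4 was seen in 14 of the 21 (9.42 CPM summed), against 0.668 CPM in ICM-like cells and 2.18 CPM in TE-like cells of replicate 1. Over all 22 unnamed cells of replicate 1, 1 cell held 54.8% of the Etv4 counts and 1 cell 36.9% of the Etv5 counts. After thinning, Etv4 was seen in 1 of 19 of these cells and Etv5 in 18 of 19.

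Fgfr2 had a count in all 21 of these cells and Fgfr1 in 17, while Fgf4 had 0 counts and Dusp6 had 2. The summed levels of 243 CPM for Fgfr2 and 127 CPM for Fgfr1 came from few cells, since the median cell had 35.3 CPM of Fgfr2 and 10.1 CPM of Fgfr1. Over all 22 unnamed cells of replicate 1, 1 cell held 43.9% of the Fgfr2 counts and 75.0% of the Fgfr1 counts. The same cells held Zp3, a zona pellucida gene of the oocyte, at 435 CPM, against 42.6 CPM in ICM-like cells and 17.6 CPM in TE-like cells of replicate 1, and Gdf9, an oocyte growth factor, at 17.1 CPM, against 8.20 CPM in ICM-like cells and 0.574 CPM in TE-like cells. The 8 named cells of the same barcode range had 81.9 CPM of Zp3 and 8.28 CPM of Gdf9. Zp2, a further zona pellucida gene, went the other way, at 0.181 CPM in the 21 unnamed cells, 2 of which had a count. Its replicate 1 level was higher in both named classes, at 0.763 CPM (ICM-like) and 1.26 CPM (TE-like). Zp1, Bmp15 and Oosp1, which also mark oocytes, had no count in the 21 unnamed cells. Their marker sums were 1364 CPM for TE, 801 CPM for ICM, 854 CPM for EPI and 930 CPM for PrE. These cells come from 1 library and did not enter the main comparisons. They entered the alternative that split all cells by the sign of the score. Whether the alternatives that clustered the cells anew named some of them was not examined. Their barcode range moves with their level, and its part in it was not tested. The other 28 unnamed cells were shallow, with a median of 67223 counts, and Etv5 was seen in 6 of them.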
